A study of Mus musculus with 42 samples.

Results

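Potassium channel genes were followed in the cerebellum of male C57BL/6 mice that were fasted intermittently and then fed freely again. The 92 genes described here were all those listed as protein-coding under a symbol made of Kcn, further letters and a number in both count tables, out of 35275 genes listed. Kcnj13 and the non-coding Kcnq1ot1 were left out. By role they comprised 30 pore-forming voltage-gated subunits, 10 silent voltage-gated subunits, 16 auxiliary subunits, 8 pores opened by calcium or sodium, 14 inward rectifiers and 14 members of the K2P leak channel family.

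RNA was sequenced from 6 groups of 5 libraries. All mice ate freely until 3 months of age. AL mice then continued on free access to food, IF16 mice went without food for 16 h of every day, and EOD mice went without food for 24 h on alternate days. These 3 groups were taken at 6 months of age, after 3 months of the regimen. The other 3 groups, which the labels mark with an added R and which are here called refed AL, refed IF16 and refed EOD, had the same 3 months followed by 2 months of free feeding, and were taken at 8 months. Refed AL mice therefore ate freely throughout and serve as the control of matched age. No source used here gives the time between the last meal and tissue collection, nor states that each library is 1 mouse. The p-values below measure the spread between these libraries, whatever its origin.

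Potassium channels let potassium leave or enter the cell and so set the resting potential, end the action potential and fix how often a neuron fires. Voltage-gated (Kv) pores open on depolarisation, calcium-activated pores on calcium entry, and K2P channels are open at rest. Inward rectifiers (Kir) pass current best near rest, some of them under control of G proteins or ATP, and auxiliary subunits change the gating or surface level of a pore. In the cerebellum Kv3 channels are known for the brief spikes of Purkinje and granule cells, Kv1 channels for basket cell terminals and axons, Kv4 channels with KChIP subunits for the A-type current of granule cells, and Kcnj10 for potassium uptake by glia.

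Libraries held 26799825 to 36167435 counts. The spread between libraries was wider at the end of the regimen than after refeeding, with a median biological coefficient of variation over the tested channel genes of 15.8% and 9.50%, against 13.0% and 7.32% over all genes tested. All 18 Purkinje and granule cell markers examined were at 97.9 CPM (the usual library-scaled count, scaled here within each table) or more in every library. Choroid plexus markers differed widely between libraries: Ttr, the main transcript of that tissue, lay between 7.83 and 4104 CPM. Because each table was scaled on its own, levels before and after refeeding are not directly comparable. AL libraries 1 and 4 stood apart. They held 135 and 112 CPM of Nrgn and 12.6 and 4.37 CPM of Lhx9, genes of neighbouring brain regions that were picked after their values were seen, against at most 12.2 and 1.255 CPM in the other 28 libraries. A gene of the preset forebrain list, Lhx2, was at 3.56 CPM in AL 1 and 1.88 CPM in AL 4, against at most 0.416 CPM elsewhere. Values of the other forebrain markers in single libraries are not given here. The means of the preset forebrain and brainstem lists did not set both libraries apart. The mean log2 CPM of forebrain markers was -1.14 in AL 1 and -1.46 in AL 4, against -1.16 in AL 2. That of brainstem markers was -2.97 and -2.02, against -2.94 in IF16 1 and -1.65 in IF16 3. In bulk tissue, fewer cells of a type and less RNA per cell cannot be told apart.

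Stretches of DNA upstream of the start are shown for 5 genes on which results below turn: Kcnc1, an abundant Kv3 pore; Kcna2 and Kcne2, which varied most between libraries at the end of the regimen; and Kcnk12 and Kcnk13, which had the smallest p-value of the channel genes in 2 tests each. They are from RefSeq on GRCm38.p6, read along the gene from 250 bases before the start up to it, and capitals mark CG pairs.
Kcnc1, chr7:46396218-46396467, plus strand: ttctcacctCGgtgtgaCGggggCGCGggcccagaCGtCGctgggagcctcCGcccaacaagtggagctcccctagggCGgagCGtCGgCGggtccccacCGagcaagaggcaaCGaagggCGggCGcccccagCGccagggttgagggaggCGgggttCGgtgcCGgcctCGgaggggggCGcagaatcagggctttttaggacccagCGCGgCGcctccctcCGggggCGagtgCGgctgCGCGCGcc
Kcna2, chr3:107101317-107101566, plus strand: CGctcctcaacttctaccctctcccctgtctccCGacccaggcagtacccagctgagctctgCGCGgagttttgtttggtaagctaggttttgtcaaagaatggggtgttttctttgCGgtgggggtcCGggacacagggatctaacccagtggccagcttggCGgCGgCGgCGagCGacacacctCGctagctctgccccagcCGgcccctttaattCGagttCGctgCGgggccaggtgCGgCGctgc
Kcne2, chr16:92292139-92292388, plus strand: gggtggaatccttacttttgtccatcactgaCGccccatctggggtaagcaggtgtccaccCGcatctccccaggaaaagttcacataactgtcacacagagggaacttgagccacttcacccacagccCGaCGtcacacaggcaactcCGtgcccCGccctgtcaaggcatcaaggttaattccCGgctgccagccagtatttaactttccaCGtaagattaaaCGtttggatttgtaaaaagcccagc
Kcnk12, chr17:87797995-87798244, minus strand: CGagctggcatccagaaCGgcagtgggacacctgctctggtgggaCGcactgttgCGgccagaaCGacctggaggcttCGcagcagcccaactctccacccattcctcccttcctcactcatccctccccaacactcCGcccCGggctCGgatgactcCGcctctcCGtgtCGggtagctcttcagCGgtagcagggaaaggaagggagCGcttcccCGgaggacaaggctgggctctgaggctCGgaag
Kcnk13, chr12:99964249-99964498, plus strand: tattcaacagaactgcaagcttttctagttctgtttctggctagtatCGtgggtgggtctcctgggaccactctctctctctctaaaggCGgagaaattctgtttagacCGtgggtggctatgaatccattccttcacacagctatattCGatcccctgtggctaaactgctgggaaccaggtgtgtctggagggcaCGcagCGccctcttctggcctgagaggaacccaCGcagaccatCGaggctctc
The stretch of Kcnc1 held 30 CG pairs, that of Kcna2 18, Kcnk12 16, Kcne2 9 and Kcnk13 8. The RefSeq table had starts for 67 of the 92 genes, and where several were listed the one nearest the deposited start was taken. That start lay 29 bases from the deposited one for Kcnc1 and coincided with it for the other 4 genes shown. Among the rest of the 67 it lay 239245 bases away for Kcnip4, 162637 for Kcna5 and 43240 for Kcnj12. For Kcnh2 it lay 22013 bases away, for Kcnj1 21567, and for the remaining genes at most 654. A ratio of observed to expected CG pairs of at least 0.6, the usual mark of a CpG island, was met by 23 of the 67 (34.3%), against 34.5% of the 27025 genes of the table. It was met by 10 of 26 channel genes averaging 10 CPM or more and by 6 of 20 below 1 CPM.

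Motifs were searched on both strands of the same 250 bases. The TATA box letters TATAAA occurred in 1 of the 67 stretches, that of Kcnj9, against 13.0% of all genes in the table. The GC box letters GGGCGG occurred in 34 of 67 (50.75%), against 32.9%, and Kcnc1, Kcne2 and Kcnk12 were among them. The E-box letters CACGTG, bound by clock and other factors, occurred in 5 (7.46%, against 6.05%), namely Kcnab1, Kcne4, Kcnh4, Kcnj2 and Kcnn4. The cyclic AMP response letters TGACGTCA occurred in 0 of 67, against 1.62%. The letters CCAAT occurred in 20 of 67 (29.85%, against 34.47%). The median share of G and C was 60.4% in the 67 stretches, against 52% over all genes with a listed start. The part of this base composition in the motif counts was not tested. These matches describe the letters only.

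Of the 92 genes, 65 had a mean of at least 1 CPM over the 30 libraries, 38 at least 10 CPM and 15 at least 100 CPM. The filter on low counts passed 78 at the end of the regimen and 76 after refeeding, 76 of them in both, and 14 in neither. Those 14 were Kcna7, Kcna10, Kcne1, Kcne3, Kcng3, Kcnh8, Kcnj1, Kcnj15, Kcnk7, Kcnk15, Kcnk16, Kcnk18, Kcnmb3 and Kcnv1. Kcnk16 had 0 counts in all libraries, and none of the others averaged above 0.147 CPM. Levels of different genes were compared per kb of gene length, as RPKM. On that scale the median of the tested channel genes was 2.52 RPKM, against 6.22 RPKM for all genes tested.

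Among the abundant transcripts was that of the Kv3 pore Kcnc1 (chromosome 7), with a mean of 149.7 ± 22.1 RPKM (SD, n = 30 libraries). Kcnk1, a K2P channel, was at 96.2 ± 7.94 RPKM, and Kcnc1 exceeded it in all 30 libraries. Below these lay Kcng4, a silent subunit that forms no channel alone, at 77.7 ± 6.82, and Kcnt1, a sodium-activated pore, at 75.3 ± 6.71. These neighbours did not separate, since Kcng4 was above Kcnt1 in 17 of 30 libraries. Kcnj9, a G protein-gated inward rectifier, had 64.6 ± 3.54 RPKM, and Kcnab2, a cytoplasmic beta subunit of Kv1, had 50.8 ± 4.06. The K2P gene Kcnk12 was at 48.8 ± 6.93 RPKM and the A-type pore Kcnd2 at 44.6 ± 5.10. A run of genes from Kcnj10 through Kcnj12, Kcnk3 and Kcnip3 to Kcnip4 lay between 40.9 and 38.1 RPKM, and each exceeded the next in only 15 to 19 of the 30 libraries.

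**Figure D1:**
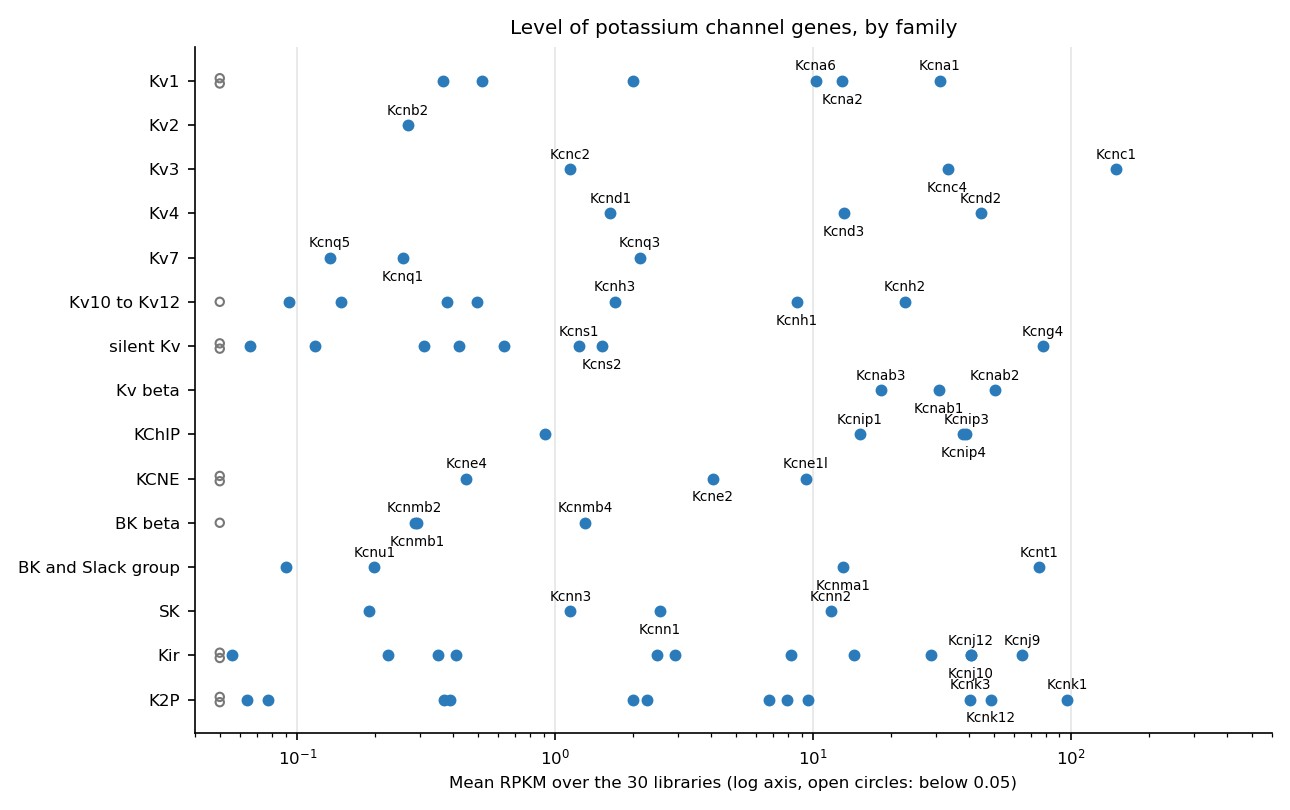
Mean RPKM of 88 genes over the 30 libraries on a log axis, 1 row per family, with up to 3 genes of a family named. Filled points are genes at 0.05 RPKM or more and open circles at the left edge genes below that. Kcnc1 at 149.7 RPKM and Kcnk1 at 96.2 RPKM are the points farthest to the right.

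By family, K2P held 14.4% of the summed RPKM of the 92 genes, the inward rectifiers 13.7%, the Kv beta subunits 6.70% and the KChIP subunits 6.26%. The Kv1 pores together held 3.83%, led by Kcna1 at 31.0 ± 3.78 RPKM. The Kv10 to Kv12 group was led by Kcnh2 at 22.6 ± 2.93 RPKM. Calcium-activated pores were lower: Kcnma1, the BK channel, had 13.0 ± 4.27 RPKM and Kcnn2, the SK channel of Purkinje cells, 11.7 ± 1.31. BK beta subunits were near the bottom, with Kcnmb4 at 1.30 RPKM the highest. Kcnma1 overlaps A830039N20Rik, a non-coding gene listed on the same strand with a mean of 47.5 CPM, and Kcnmb4 overlaps the antisense gene Kcnmb4os2 at 6.49 CPM. The sources used here do not say whether counting used strand, which bears on Kcnmb4. Kcnma1 and its overlapping gene lie on the same strand, so strand would not separate their reads. The levels of both channel genes are therefore uncertain. In all, 23 of the 92 genes overlap another listed gene.

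At the end of the regimen, the question was whether either fasting schedule altered the transcript levels of these channels. None of the 78 tested genes passed the threshold in IF16 against AL (edgeR quasi-likelihood test, Benjamini-Hochberg adjusted p under 0.05 over all genes tested), where 0.0483% of 16577 genes passed. Before adjustment, 12 had a p under 0.05, 3 higher and 9 lower in IF16, or 15.4%, against 9.92% of all genes (4.35% higher and 5.57% lower). Without AL 1 and AL 4, which stood apart, the split was 6 higher and 4 lower, and with the length gradient described below as a covariate it was 5 higher and 15 lower. Over all genes these fits had 1566 and 2341 with an unadjusted p under 0.05, against 1644 as first fitted. None passed in EOD against AL either, where 0.0664% of genes did. There 10 had an unadjusted p under 0.05, 3 higher and 7 lower, or 12.8%, against 14.4% (7.02% and 7.4%). That count was 19 without AL 1 and 16 without AL 2, fits for which counts over all genes are not given here. Without AL 1 and AL 4 together the split turned to 8 higher and 4 lower, and with the mean of the choroid plexus markers as a covariate it was 8 higher and 9 lower. Over all genes those fits had 1980 and 3839 with an unadjusted p under 0.05, against 2390 as first fitted. DESeq2 also called 0 of these genes in both comparisons, and 96 and 128 over all genes. A fit of all 30 libraries together called Kcnip2 lower in IF16 (edgeR adjusted p = 0.0484), and Kcnip2 and Kcnip3 lower in EOD (edgeR adjusted p = 0.0218 and 0.0463). Over all genes that fit called 135 in IF16 and 188 in EOD, against 8 and 11 in the fit of the regimen libraries alone. It pools the spread with that of the refed libraries: the common biological coefficient of variation was 11.7%, against 14.3% in the regimen libraries alone. The median log2 fold change over the tested channel genes was -0.09 in IF16 and 0.01 in EOD, against -0.01 and -0.02 over all genes. Both comparisons use the same AL libraries, so their values are given side by side and are not independent.

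Among the inward rectifiers, Kcnj3, the shared subunit of neuronal G protein-gated channels, had the smallest p-value among genes with a positive fold change in IF16. Its 5 AL libraries held 79.6, 67.2, 65.3, 72.6 and 70.4 CPM. The IF16 libraries held 80.4, 74.5, 95.7, 85.0 and 88.6 CPM. The EOD libraries held 82.8, 91.9, 86.3, 80.2 and 75.9 CPM. All but 1 library of each fasted group lay above the highest AL library, AL 1. The log2 fold change was 0.26 in IF16 (SE 0.0772, edgeR adjusted p = 0.317) and 0.23 in EOD (SE 0.0772, edgeR adjusted p = 0.299). After refeeding the 3 groups lay within 64.9 to 77.8 CPM and overlapped. Its partner subunit gene Kcnj9 was at 213 ± 10.6 CPM across AL, 221 ± 17.8 across IF16 and 215 ± 7.51 across EOD (SD, n = 5).

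KChIP subunits are calcium-binding partners of Kv4 pores. Kcnip4 held 80.3 to 90.6 CPM (median 86.1) in AL and 91.7 to 98.5 CPM (median 94.3) in IF16, so that these groups did not overlap. EOD libraries, at 88.1 to 98.6 CPM, overlapped both. The log2 fold change in IF16 was 0.14 (SE 0.0528, edgeR adjusted p = 0.419). Kcnip3 had a lower mean in the fasted groups. It held 103.5, 108.5, 119, 130 and 125 CPM in AL against 98.7, 94.8, 101, 99.7 and 107.6 CPM in EOD (log2 ratio -0.22 with an SE of 0.0735, edgeR adjusted p = 0.293). Only EOD 5, at 107.6 CPM, reached the AL range. Kcnd2, the main Kv4 pore in these libraries, was at 205 ± 19.0 CPM in AL and 242 ± 37.1 in EOD (log2 ratio 0.24 with an SE of 0.107, edgeR adjusted p = 0.337). The EOD mean rests in part on EOD 4 at 307 CPM, and without that library the log2 fold change was 0.14. Kcnd2 and Kcnip3 followed the length gradient described below, with opposite signs, and with it as a covariate their log2 fold changes in EOD were 0.07 and -0.12 (edgeR adjusted p = 0.848 and 0.544).

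Kcnip2 had the largest fold changes of the genes named for these comparisons, and these rested on AL libraries 1 and 4. Its AL libraries held 12.6, 2.38, 2.28, 10.2 and 2.98 CPM, while the other 25 libraries of the series lay between 1.59 and 2.80 CPM. On the log2 scale the fold change was -1.26 in IF16 (SE 0.4005, edgeR adjusted p = 0.347) and -1.51 in EOD (SE 0.408, edgeR adjusted p = 0.219). Without AL 1 alone it was -0.80 in IF16, and without AL 1 and AL 4 it was 0.0013 in IF16 (edgeR adjusted p = 0.998) and -0.26 in EOD (edgeR adjusted p = 0.456). The same 2 libraries were those rich in Nrgn and Lhx9. Other channel genes high in them were picked after their values were seen. The Kv3 gene Kcnc2 was at 23.2 CPM in AL 1 and 9.95 in AL 4, against 4.60 to 9.396 CPM in the other 28 libraries. The silent subunit gene Kcng2 was at 2.63 and 3.03 CPM, against 0.574 to 1.68 CPM elsewhere.

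K2P channels set the resting conductance. Kcnk2 (TREK-1) held 26.9, 27.2, 25.4, 26.2 and 21.8 CPM in AL. It held 24.07, 23.41, 20.04, 19.94 and 21.04 CPM in IF16, and 19.5, 22.1, 20.4, 20.9 and 22.3 CPM in EOD. The groups overlapped only through AL 5, the lowest AL library. The log2 fold change was -0.23 in IF16 (SE 0.0774, edgeR adjusted p = 0.363) and -0.28 in EOD (SE 0.0776, edgeR adjusted p = 0.236). After refeeding Kcnk2 was at 24.5 ± 1.51 CPM across refed AL, 26.8 ± 1.58 across refed IF16 and 24.7 ± 2.58 across refed EOD.

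Kcnk13 (THIK-1), known as the resting potassium channel of microglia, held 8.21, 8.29, 7.40, 8.61 and 9.79 CPM in AL. It held 7.06, 7.85, 6.64, 6.23 and 5.62 CPM in IF16, and 5.64, 6.61, 7.25, 7.48 and 6.90 CPM in EOD. Only EOD 4 and IF16 2 reached the AL range, above AL 3, the lowest AL library. On the log2 scale the fold change was -0.34 in IF16 (SE 0.108, edgeR adjusted p = 0.347) and -0.32 in EOD (SE 0.108, edgeR adjusted p = 0.305). The mean log2 CPM of 8 microglia markers was 3.64 to 4.03 in AL, 3.54 to 3.87 in IF16 and 3.55 to 3.73 in EOD. Of those 8 markers 6 had negative fold changes in each comparison, 1 in IF16 and 3 in EOD with an unadjusted p under 0.05, and none was at 0 in any library. The markers' part in the Kcnk13 difference was not tested.

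At low levels, Kcna5, a Kv1 pore, was at 0.891 ± 0.434 CPM across AL and 1.53 ± 0.585 across IF16 (log2 ratio 0.78 with an SE of 0.362, edgeR adjusted p = 0.4999), and it overlaps Kcna1, whose reads it may share. Kcne4, an auxiliary subunit that restrains Kv1 pores, was at 0.976 ± 0.153 CPM in AL and 1.55 ± 0.387 in EOD (log2 ratio 0.67 with an SE of 0.188, edgeR adjusted p = 0.237). One EOD library, EOD 5 at 1.03 CPM, fell within the AL range.

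**Figure D2:**
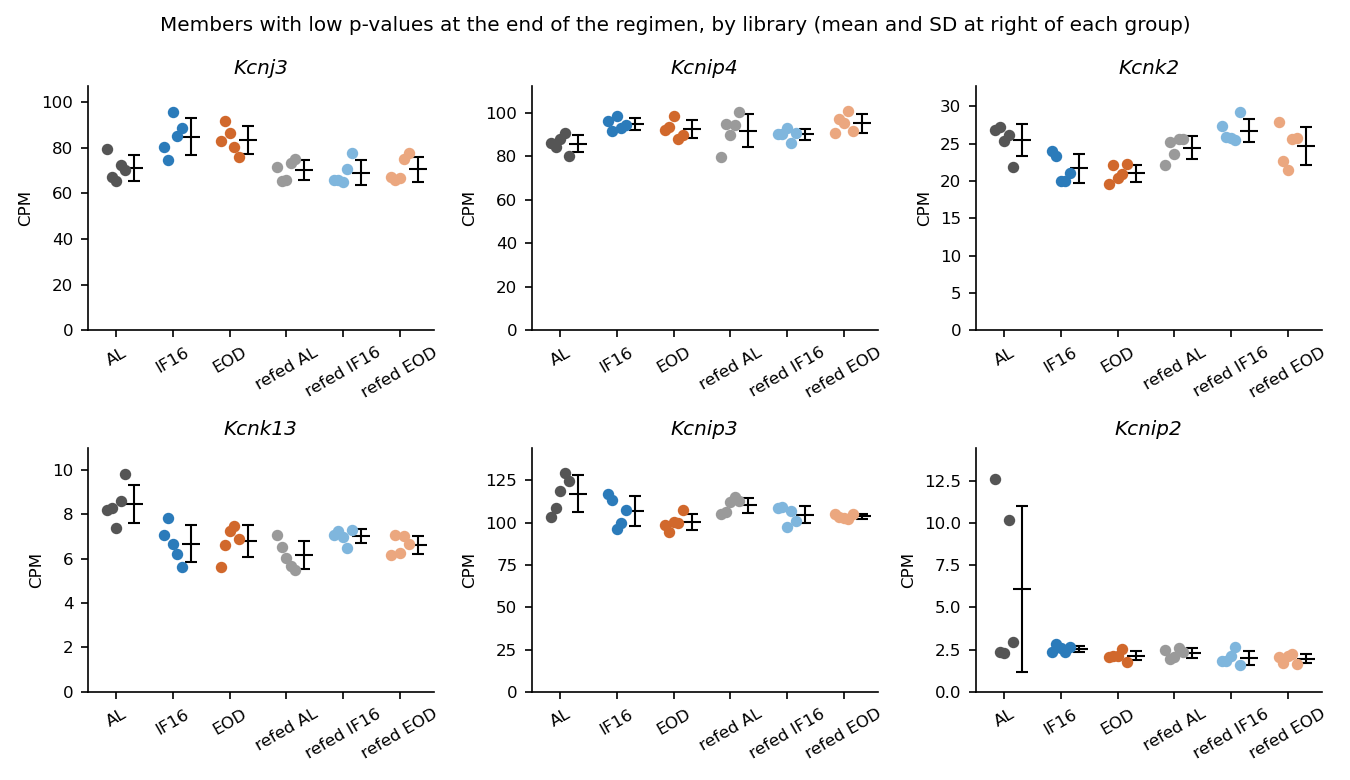
CPM of 6 genes in each library (points) by group, with the group mean and SD at the right of the points and a vertical axis from 0. Kcnj3 is higher in most IF16 and EOD libraries than in AL, Kcnk2 and Kcnk13 are lower, and the high Kcnip2 mean of AL comes from 2 points at 12.6 and 10.2 CPM.

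Setting EOD directly against IF16, edgeR called 0 of the 78 genes, and 0 of all genes (0%). DESeq2 also called 0 of the 78. Before adjustment 5 channel genes had a p under 0.05, 3 higher and 2 lower in EOD, against 3.62% of all genes (1.76% and 1.86%). The count was 2 without IF16 1, 3 without any 1 of EOD 1, EOD 4 and EOD 5, and 10, 8 of them higher, with the choroid plexus mean as a covariate. With that covariate the count over all genes was 1090, against 600 without it. Counts over all genes are not given here for the fits that left out a library. Kcnk3 (TASK-1) was at 142 ± 7.55 CPM in IF16 and 159 ± 16.8 in EOD, and Kcnj11, the pore of ATP-sensitive channels, at 31.1 ± 3.50 and 35.3 ± 2.91. Kcnmb4 was at 2.28 ± 0.338 and 1.70 ± 0.276 CPM, and the silent subunit gene Kcns3 at 2.15 ± 0.293 and 1.65 ± 0.340. The edgeR adjusted p was 0.977 for all 4 of these genes.

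For the well expressed channels the intervals of the fold changes were narrow. All 15 genes averaging 100 CPM or more had a 95% interval of the fold change within 1.5-fold in each direction in all 6 comparisons. The most extreme bounds among them at the end of the regimen were 0.748-fold for IF16 against AL, in Kcnc1, and 1.41-fold for EOD against AL, in Kcna1. Of the 38 genes of at least 10 CPM, 32 met the 1.5-fold limit in IF16 against AL, 34 in EOD against AL and 34 in EOD against IF16. After refeeding all 38 met it against refed AL, and 37 in refed EOD against refed IF16. Kcna2 had the widest interval of the 38 genes in all 6 comparisons.

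**Figure D3:**
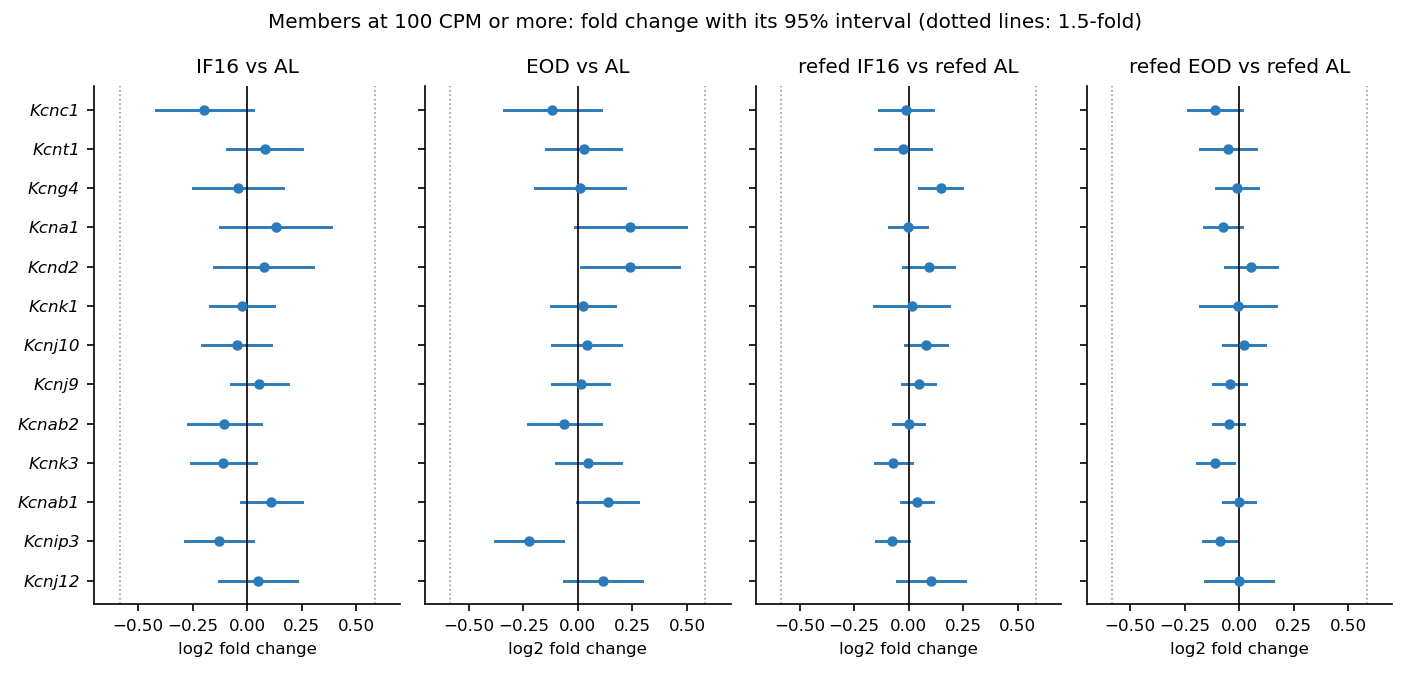
Log2 fold change (points) with its 95% interval (lines) from edgeR for 13 genes averaging 100 CPM or more, in 4 comparisons with the controls of matched age. Dotted lines mark 1.5-fold, and no interval reaches them. The intervals after refeeding are narrower than those at the end of the regimen.

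Kcna2 varied widely between libraries. This Kv1 pore of axons and basket cell terminals held 61.1, 41.0, 28.0, 3.55 and 5.31 CPM in AL. It held 6.941, 15.4, 48.45, 29.98 and 24.25 CPM in IF16, and 34.53, 41.02, 19.95, 52.15 and 17.02 CPM in EOD. Low values thus came from AL 4, AL 5 and IF16 1. These were also the 3 libraries with the lowest length gradient, the slope of a library's log2 CPM, relative to the table's mean for each gene, on log2 gene length. Their gradients were -0.158, -0.106 and -0.115, against -0.0307 or more in the other 12.

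Across the 15 libraries of the regimen table, Kcna2 followed the gradient with a Pearson r of 0.941 (permutation p = 1e-05, adjusted 0.000308) and a Spearman rho of 0.939 (permutation p = 1e-05, adjusted 0.000385). The p of 1e-05 is the smallest that the resamples can give, and adjustment was over 308 relations. Without the 2 libraries at greatest distance from the median gradient it was 0.944, and with group means removed it was 0.948. By this criterion, both adjusted p-values under 0.05, 20 of the 78 channel genes followed the gradient, 17 of them positively and 3 negatively. The criterion was applied to channel genes only, so no share over all genes stands beside this count. Kcna1, the other main Kv1 pore, had an r of 0.980 with 194 CPM in the library of the lowest gradient and 335 CPM in that of the highest. Kcnma1 had an r of 0.970 (20.04 and 79.2 CPM in those libraries), Kcnd3 0.939 (60.5 and 101 CPM), Kcnk10 0.931 (10.8 and 25.6 CPM) and Kcnk9, a TASK channel of granule cells, 0.924 (1.49 and 12.1 CPM).

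Among the positive followers were the voltage-gated pores Kcna1, Kcna2, Kcna3, Kcnb2, Kcnd2, Kcnd3, Kcnh7 and Kcnq3. Also among them were Kcnj6, Kcnj16, Kcnk9, Kcnk10, Kcnma1, Kcnn3 and the silent subunit gene Kcns2. Negative followers were Kcnip3, Kcnj8 and Kcne1l. The measure is built on gene length, and 14 of the 17 positive and 0 of the 3 negative followers were longer than the median tested gene of 2988 bases, as were 54 of all 78. The 3 shorter positive followers were Kcna3, Kcnk9 and Kcnk10, at 1968, 1209 and 2533 bases. Leaving out those same 2 libraries gave an r of 0.595 for Kcna3, the lowest of the 17 positive followers. An r of at least 0.8 was reached by 15 of the 78 (19.2%), against 14.9% of all genes tested, and an r of -0.8 or below by 3 (3.85%), against 11.6%. A difference in the gradient larger than its spread was not found between IF16 and AL (exact permutation p = 0.452, two-sided, n = 5 per group) or between EOD and AL (exact permutation p = 0.175). Kcna2 means were 27.8 ± 24.4, 25.0 ± 15.8 and 32.9 ± 14.7 CPM for AL, IF16 and EOD. After refeeding, where the gradient ranged only from -0.0265 to 0.0427, 0 of 76 channel genes followed it by the same criterion. An r of at least 0.8 was reached there by 0 of the 76, against 0.882% of all genes. An r of -0.8 or below was reached by 0, against 0.426%.

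Kcne2, an auxiliary subunit of the choroid plexus epithelium, varied most of all. Its AL libraries held 0.231, 16.4, 22.2, 21.3 and 7.68 CPM and its IF16 libraries 7.66, 3.56, 2.69, 17.2 and 0.180 CPM. Among EOD libraries it held 5.30 to 15.8 CPM, and after refeeding 0.0676 to 14.8 CPM. It followed the mean log2 CPM of 10 choroid plexus markers with an r of 0.992 in the regimen table (permutation p = 1e-05, adjusted 0.000308; rho 0.911, permutation p = 2e-05, adjusted 0.000616) and of 0.986 after refeeding (permutation p = 1e-05, adjusted 0.000308; rho 0.843, permutation p = 0.00013, adjusted 0.00286). Without the 2 libraries farthest from the median marker level these were 0.969 and 0.970. It was the only channel gene to do so by the criterion above, and all 10 markers were detected in every library. An r of at least 0.8 with the marker mean was reached by 1.28% of the tested channel genes in the regimen table, against 0.706% of all genes. After refeeding the shares were 1.32% and 0.511%. In the refeeding table the groups mixed on this scale: the high libraries were refed AL 1 at 14.8, refed EOD 3 at 14.8, refed EOD 2 at 6.92 and refed IF16 1 at 3.998 CPM, with the other 11 at 1.37 CPM or below.

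**Figure D4:**
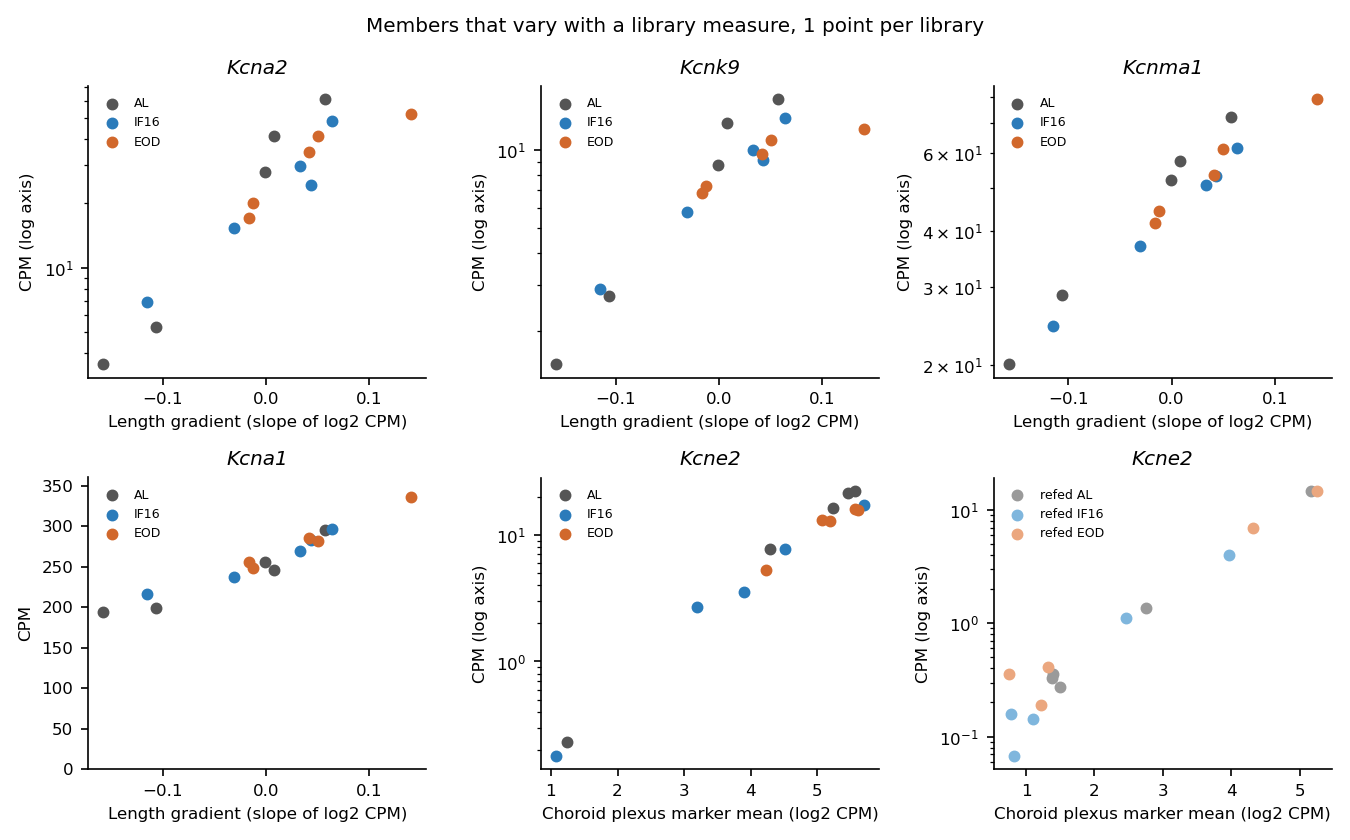
CPM of 5 genes against a library measure, 1 point per library coloured by group. The first 4 panels plot Kcna2, Kcnk9, Kcnma1 (log CPM axes) and Kcna1 (axis from 0) against the length gradient at the end of the regimen, and the last 2 plot Kcne2 on a log CPM axis against the mean of choroid plexus markers before and after refeeding. AL 4, AL 5 and IF16 1 are the 3 points at the left of the first 4 panels, with 3.55, 5.31 and 6.94 CPM of Kcna2.

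After refeeding, the question was whether channel transcripts differed 2 months after the regimens ended. By edgeR, refed IF16 against refed AL called 0 of 76 channel genes, with 0.17% of 16444 genes called, and DESeq2 also called 0 of them. Over all genes DESeq2 called 103. At an unadjusted p under 0.05 there were 7, 4 higher and 3 lower in refed IF16, or 9.21%, against 9.58% of all genes (4.76% and 4.83%). That count was 12 without refed IF16 1 and 3 without refed AL 4. With the length gradient as a covariate it was 4, all lower, and 683 over all genes, against 1576 without the covariate. Refed EOD against refed AL called 0 by edgeR, with 0.0426% of genes called. At an unadjusted p under 0.05 there were 10, 2 higher and 8 lower, or 13.2%, against 8.5% (4.51% and 3.99%). The count was 15 without refed EOD 1. With the gradient as a covariate it was 2 higher and 13 lower, and 1516 over all genes, against 1397 without the covariate. DESeq2 called 3 channel genes, Kcnk12 included, all lower in refed EOD. Over all genes DESeq2 called 79, against 7 by edgeR. Refed EOD against refed IF16 called 0 by edgeR, with 0.0182% of genes called. At an unadjusted p under 0.05 there were 8, all lower in refed EOD, or 10.5%, against 9.75% (4.99% higher and 4.76% lower). The count was 16 without refed EOD 1 and 5 without any 1 of refed EOD 3, refed IF16 4 and refed IF16 5. For the fits in this paragraph that left out a library, counts over all genes are not given here. Their shifts therefore cannot be set against those of all genes. With the gradient as a covariate it was 3, 1 higher and 2 lower, and 794 over all genes, against 1603 without the covariate. DESeq2, without that covariate, called 3 channel genes here, Kcnk12 and Kcng4 included, all lower. Over all genes DESeq2 called 121, against 3 by edgeR. The last 2 comparisons share the refed EOD libraries, and the first 2 share refed AL. The median log2 fold change over the channel genes was 0.01, -0.03 and -0.04 in the 3 comparisons, against -0.0023, 0.00067 and 0.0044 over all genes.

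Kcnk12 (THIK-2), a K2P subunit, had the smallest p-value of the channel genes in refed EOD against each of the other groups. Its refed AL libraries held 113.3, 106.3, 97.3, 98.9 and 100.1 CPM. The refed IF16 libraries held 103.3, 104.9, 103.3, 97.0 and 101.7 CPM. The refed EOD libraries held 98.0, 89.4, 72.4, 85.1 and 84.0 CPM. Only refed EOD 1 reached the range of the other groups. The log2 fold change was -0.27 against refed AL (SE 0.0603, edgeR adjusted p = 0.171, DESeq2 adjusted p = 0.0151) and -0.25 against refed IF16 (SE 0.0604, edgeR adjusted p = 0.228, DESeq2 adjusted p = 0.0171). Over 20 alternatives the adjusted p against refed AL ranged from 0.0151 to 0.9998, and 3 of the 20 passed the threshold. Without refed EOD 1 the edgeR adjusted p was 0.0428 against refed AL and 0.0212 against refed IF16. With the replicate number as a block the edgeR adjusted p was 0.0183 against refed AL and 0.0275 against refed IF16. Over all genes that fit called 45 and 40, against 7 and 3 without the block. No source used here says that replicate numbers pair the samples. With the length gradient as a covariate the log2 fold change against refed IF16 was -0.18 (edgeR adjusted p = 0.998). Against refed AL, where the gradient overlapped between the groups (exact permutation p = 0.714, two-sided, n = 5 per group), it was -0.28 (edgeR adjusted p = 0.138). At the end of the regimen Kcnk12 was at 101 ± 12.8 CPM across AL, 80.9 ± 17.6 across IF16 and 94.1 ± 11.9 across EOD.

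Kcng4, whose subunit joins Kv2 pores, held 267.7, 278.1, 283.7, 289.8 and 305.5 CPM in refed AL. It held 280.4, 319.6, 324.0, 330.7 and 322.5 CPM in refed IF16, against 300.4, 285.5, 280.5, 275.3 and 271.0 CPM in refed EOD. Of refed IF16, 4 libraries lay above all others and refed IF16 1 among them. The log2 fold change was 0.15 in refed IF16 against refed AL (SE 0.0460, edgeR adjusted p = 0.309, and 0.0412 without refed IF16 1) and -0.16 in refed EOD against refed IF16 (SE 0.0460, edgeR adjusted p = 0.266, DESeq2 adjusted p = 0.0402). The length gradient was higher in all refed IF16 than in all refed AL libraries (0.0235 ± 0.0171 against -0.0134 ± 0.00944, exact permutation p = 0.00794, two-sided, which 5 against 5 cannot go below, adjusted 0.124 over 78 tests). With it as a covariate the Kcng4 log2 fold change in refed IF16 was 0.10 (edgeR adjusted p = 0.999).

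**Figure D5:**
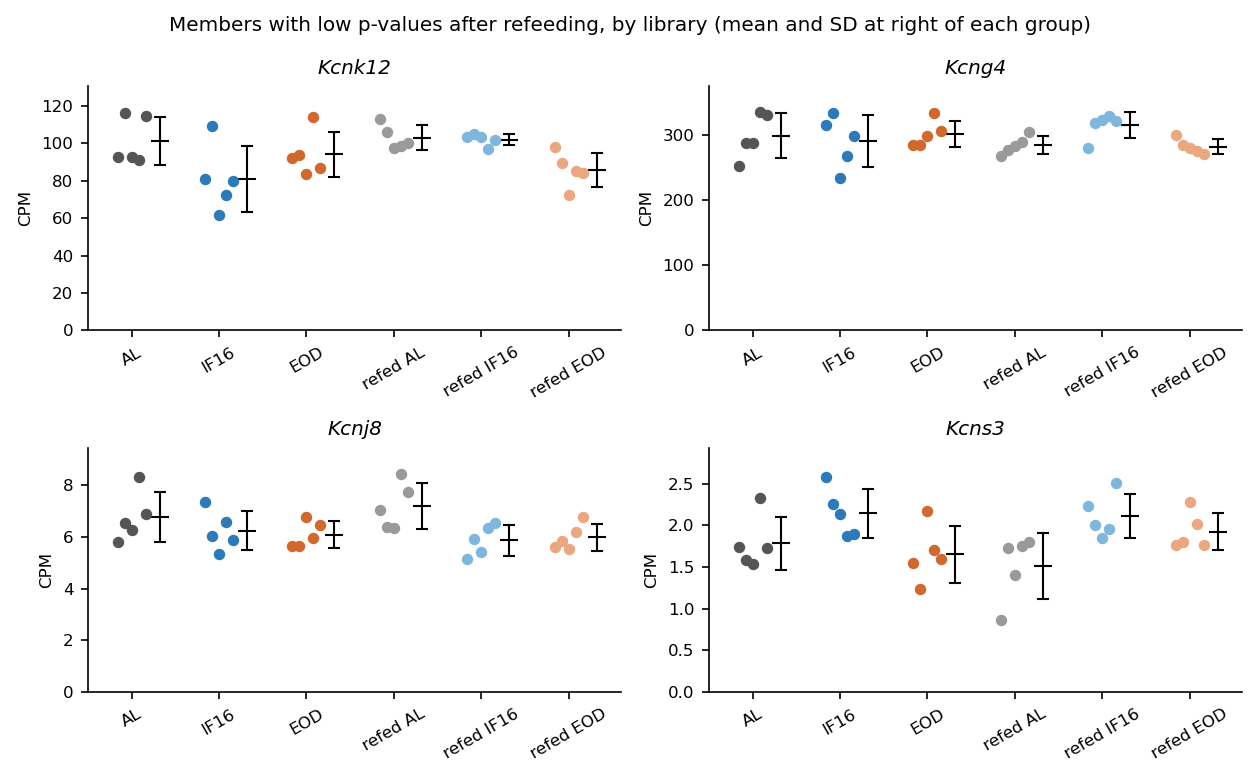
CPM of 4 genes in each library (points) by group, with the group mean and SD at the right of the points and a vertical axis from 0. After refeeding, 4 of the 5 refed EOD points of Kcnk12 lie below those of refed AL and refed IF16, and 4 of the 5 refed IF16 points of Kcng4 lie above those of refed AL and refed EOD.

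The remaining genes of refed IF16 and refed EOD had smaller or less certain differences from refed AL. In refed IF16, Kcnj8, the ATP-sensitive pore of mural cells, was at 5.875 ± 0.602 against 7.20 ± 0.897 CPM (edgeR adjusted p = 0.341). Of 8 endothelium and mural cell markers 6 had negative fold changes there, 2 of them with an unadjusted p under 0.05 and 0 called, and none was at 0 in any library. Their mean log2 CPM was 5.65 to 5.83 in refed AL and 5.61 to 5.77 in refed IF16, and their part in the Kcnj8 difference was not tested. Kcng2 was at 0.745 ± 0.183 against 1.08 ± 0.239 CPM (edgeR adjusted p = 0.377). Kcns3 was at 2.11 ± 0.265 against 1.51 ± 0.395 CPM, without overlap (edgeR adjusted p = 0.350). In refed EOD, the Kv1 gene Kcna4 was at 2.37 ± 0.195 against 1.90 ± 0.329 CPM (edgeR adjusted p = 0.489), and Kcnj16, a glial partner of Kcnj10, at 31.4 ± 2.70 against 28.6 ± 1.14 (edgeR adjusted p = 0.561). Of 9 astrocyte and Bergmann glia markers 8 had positive fold changes in refed EOD, 4 of them with an unadjusted p under 0.05 and 1 called by edgeR, and none was at 0. Their mean log2 CPM was 7.74 to 7.94 in refed AL and 7.91 to 8.01 in refed EOD, and their part in the Kcnj16 difference was not tested.

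Whether a difference at the end of the regimen had altered by the end of refeeding was tested as an interaction in a fit of all 30 libraries. For IF16 edgeR called 0 of 78 channel genes (0.0474% of 16877 genes), and 9 had an unadjusted p under 0.05, 7 positive and 2 negative, against 7.21% of genes (3.93% and 3.28%). For EOD it called 0 (0.0119% of genes), and 11 had an unadjusted p under 0.05, 5 positive and 6 negative, against 10.3% (5.48% and 4.86%). The EOD count was 19 without AL 1 and 7 without any 1 of AL 4, EOD 4 and refed EOD 3. Counts over all genes are not given here for those fits. Without AL 1 and AL 4 together the splits were 6 positive and 6 negative for IF16 and 2 positive and 10 negative for EOD. Over all genes there were then 1424 and 1726, against 1217 and 1745 with all libraries. With all libraries DESeq2 called 1 and 0 channel genes, and 27 and 14 over all genes, against 8 and 2 by edgeR. The 1 was Kcnk13 for IF16, with a log2 interaction of 0.53 (SE 0.129, edgeR adjusted p = 0.196, DESeq2 adjusted p = 0.0386). Its difference from controls was -0.34 before and 0.19 after refeeding on the log2 scale, where refed AL libraries held 5.49 to 7.05 CPM (median 6.03) and refed IF16 libraries 6.49 to 7.27 (median 7.07). Over its 30 alternatives the interaction stayed between 0.47 and 0.59. The adjusted p, from edgeR or DESeq2, ranged from 0.0386 to 0.419 over them, and 1 of the 30 passed the threshold. All 8 microglia markers also had positive IF16 interactions, with a median of 0.21 on the log2 scale, 2 of them with an unadjusted p under 0.05 and 0 called. Their mean log2 CPM was 3.57 to 3.66 in refed AL and 3.61 to 3.69 in refed IF16, and their part in the Kcnk13 interaction was not tested. Kcnk2 had interactions of 0.36 for IF16 and 0.29 for EOD (edgeR adjusted p = 0.347 and 0.449), and Kcnj3 -0.28 for IF16 (edgeR adjusted p = 0.529). For EOD, Kcna1 had -0.32 (edgeR adjusted p = 0.466), which became -0.11 once the length gradient entered as a covariate term.

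Genes that work with these channels were read from the same fits. Of 18 tested channel partners, 0 were called in any of the 8 tests by edgeR. Adam22, a receptor for Lgi1 at Kv1 complexes, had a log2 fold change of 0.32 in IF16 and 0.26 in EOD against AL (edgeR adjusted p = 0.284 and 0.309). Cntnap1, which holds axonal junctions beside Kv1 clusters, had -0.13 in refed EOD against refed AL (edgeR adjusted p = 0.171). The 4 HCN pacemaker channels, 11 potassium pumps and cotransporters, 9 tested sodium channel and 18 calcium channel genes had 0 calls in all 8 tests. Hcn2 was at 255 ± 79.8 CPM across AL, 188 ± 31.9 across IF16 and 191 ± 13.5 across EOD (log2 fold changes -0.44 and -0.42, edgeR adjusted p = 0.419 and 0.321). After refeeding it was at 216 ± 7.81 CPM across refed AL, 191 ± 17.5 across refed IF16 and 192 ± 11.4 across refed EOD (log2 fold changes -0.17 in both, edgeR adjusted p = 0.309 and 0.377). Hcn2 was lower on average in all 4 comparisons with controls, at an unadjusted edgeR p from 0.00469 to 0.0211, and was called in none. These 4 comparisons are not independent, since IF16 and EOD share the AL libraries and both refed groups share refed AL. Hcn2 is also singled out here from the gene lists above. Its SD was 79.8 CPM in AL, against 31.9 in IF16 and 13.5 in EOD. Fits of Hcn2 without particular AL libraries are not given here.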

How the data were processed

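RNA was sequenced from 30 cerebellum libraries, 5 in each of 6 groups. The authors deposited raw gene counts, whole numbers for 35275 genes in 2 tables of 15 libraries, per the file headers. The submitters' processing notes name STAR 2.5, HTSeq 0.6.1, DESeq2 version 2 and the build mm10. Strand and annotation release are not given in the sources used here. The 12 H3K9me3 and input samples were not analysed here.

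Counts were tested with edgeR 4.0.16 (R 4.3.3) by quasi-likelihood after its default filter on low counts and TMM scaling, with 1 fit per table and 1 fit of all 30 libraries for the interactions. Benjamini-Hochberg adjustment ran over all genes tested, with a threshold of 0.05. RPKM is scaled CPM per kb of the deposited gene length. Correlations used log2 of CPM plus 0.1. Correlation p-values came from 100000 permutations, and comparisons of library measures used exact permutation tests. The edgeR script was tested on simulated data.

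The text names genes by rule: any gene called, up to 3 higher and 3 lower per comparison with the smallest unadjusted p under 0.05 and at least 1 CPM in a group, the top gene of each family, a preset list of cerebellar channels, and the 3 most variable genes per table. Some genes that the rule covers are not reported here. The members and lists were chosen with earlier results of these data known. Alternatives were DESeq2 1.42.0, other scaling, filters, covariates, sample sets, a replicate block and leaving out libraries. Replicates were not duplicates: the chi-square per degree of freedom between libraries of a group was 4.25 to 134.5 over 60 pairs. Total counts of 26799825 to 36167435 per library leave genes under about 1 CPM with wide intervals.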

Additional observations from a re-analysis of the deposited data

Results flagged for a closer look

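Within groups of 5 libraries, the highest or lowest library of 7 gene and group pairs stood apart from the other 4 by a gap of more than 0.71 of the group's range, out of 111 pairs checked (6.31%). Chance flags about 1 in 20 groups. In EOD, library 4 was highest for Kcnd2 at 307.4 CPM (next 231.9) and lowest for Kcne2 at 5.30 CPM (next 12.8). This library also had the highest length gradient, 0.141. Kcne2 was highest in refed AL 1 at 14.8 CPM (next 1.37) and in refed IF16 1 at 3.998 CPM (next 1.12), which were also the highest of their groups in the choroid plexus marker mean, at 5.17 and 3.97. Kcng4 was lowest in refed IF16 1 at 280.4 CPM (next 319.6). Kcnmb4 was highest in AL 1 at 2.40 CPM (next 1.91), and Kcns3 in AL 4 at 2.33 CPM (next 1.73).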

How the results depend on the processing

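Of 186 alternative fits over the 8 tests, 176 called 0 channel genes. DESeq2 called 3 in refed EOD against refed AL, 3 in refed EOD against refed IF16 and 1 in the IF16 interaction. Over all genes it called 79, 121 and 27 there. One fit of all 30 libraries called 1 in IF16 against AL and 2 in EOD against AL, and 135 and 188 over all genes. Leaving out 1 library gave 0 to 2 calls in refed EOD against refed AL and against refed IF16 (2 without refed EOD 1), 0 to 1 in refed IF16 against refed AL (1 without refed IF16 1) and 0 in the others. Causes were not tested.

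No source used here says that replicate numbers pair the samples, and not every same-numbered pair correlated above 0.1, the limit set for treating them as paired. In the regimen table same-numbered libraries had a median r of -0.107, and 0 of 15 matched best with their own number. After refeeding the median was 0.169, with 12 of 15 same-numbered pairs above 0.1 against 14 of 60 others, and 8 of 15 matched best with their own number, which hints at a pairing there. With the replicate number as a block, Kcnk12 was the 1 channel gene called in refed EOD against refed AL (edgeR adjusted p = 0.0183) and against refed IF16 (edgeR adjusted p = 0.0275). Calls over all genes went from 28 to 95 in refed IF16 against refed AL, from 7 to 45 in refed EOD against refed AL and from 3 to 40 in refed EOD against refed IF16, while channel genes with an unadjusted p under 0.05 numbered 11 in refed IF16 against refed AL and 15 in refed EOD against refed IF16.

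Counts at an unadjusted p under 0.05 moved most, and those over all genes moved too. EOD against AL had 16 without the filter, 16 with the length gradient as covariate, 17 with the choroid plexus mean and 18 in the fit of 30 libraries. Over all genes these fits had 2843, 1367, 3839 and 4306, against 2390 as first fitted. IF16 against AL had 20 with the gradient and 19 in the fit of 30 (2341 and 2810 over all genes, against 1644). EOD against IF16 had 10 with the choroid plexus mean and 2 without AL 4, AL 5 and IF16 1 (1090 and 530 over all genes, against 600). refed IF16 against refed AL had 4 with the gradient and 3 in the fit of 30, refed EOD against refed IF16 3 and 4, and refed EOD against refed AL 5 in the fit of 30. Over all genes refed IF16 against refed AL had 683 and 654, against 1576. Refed EOD against refed IF16 had 794 with the gradient, against 1603. With the gradient the interactions had 14 for IF16 and 7 for EOD (2485 and 1027 over all genes, against 1217 and 1745). Counts over all genes on leaving out 1 library are not given here. Leaving out 1 library gave 9 to 15 in IF16 against AL, 8 to 19 in EOD against AL, 2 to 6 in EOD against IF16 (2 without IF16 1, 3 without EOD 1, EOD 4 or EOD 5), 3 to 12 in refed IF16 against refed AL, 8 to 15 in refed EOD against refed AL, 5 to 16 in refed EOD against refed IF16, 6 to 10 in the IF16 interaction and 7 to 19 in the EOD interaction.

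Of 961 alternative values of 41 gene and comparison pairs, 17 were called and 1 turned sign: Kcnip2 in IF16 against AL was 0.0013 without AL 1 and AL 4. The gradient difference of refed EOD against refed AL was -0.00146 to 0.00754 on leaving out 1 library, turning sign without refed EOD 1 or refed EOD 4. That of refed EOD against refed IF16 was -0.0384 to -0.0287, with exact permutation p up to 0.0556. The median SD of log2 CPM over the channel genes was 0.200 to 0.223 in the regimen table and 0.115 to 0.121 after refeeding.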
